A study of Mus musculus with 6 samples.

Results

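Cells meet superoxide and hydrogen peroxide, much of it made by the mitochondrial respiratory chain, with superoxide dismutases, catalase and enzymes that draw their electrons from glutathione and thioredoxin. The set described here held 41 genes of this defence, chosen by symbol from a list of its regulators, enzymes and metal-binding proteins, out of 23284 genes listed. All 41 symbols were found in each of the 6 libraries. Of the 41, 39 had a mean of at least 1 FPKM (reads per transcript length and per library size) and were tested. The other 2, Nqo1 and Sod3, were below that level.

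The libraries were made from poly(A) RNA of whole hearts of C57BL/6 mouse embryos at E13.5. The 3 Tfam KO libraries came from embryos with both Tfam alleles floxed (Tfam fl/fl; Nkx2.5 IRES-Cre/+), and the 3 Control libraries from embryos with 1 floxed allele (Tfam fl/+; Nkx2.5 IRES-Cre/+). Both groups carried Cre in the Nkx2.5 locus, so recombination was directed to the cardiac lineage, controls had lost 1 Tfam copy there, and other cells of the heart kept theirs. Each library was a pool of 5 hearts. Tfam encodes mitochondrial transcription factor A, which packages and transcribes mitochondrial DNA, and the comparison addresses how gene expression in the heart differs without it.

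NRF2, the product of Nfe2l2, is a main transcriptional activator of antioxidant genes, and 13 members are known as its targets. KEAP1 holds it in the cytosol for degradation until oxidants or electrophiles modify KEAP1, and NRF2 then binds antioxidant response elements together with a small MAF protein. NRF1, the product of Nfe2l1, binds similar elements and is best known for inducing proteasome genes. In mitochondria, superoxide dismutase 2 (Sod2) turns superoxide into peroxide. Peroxiredoxin 3 (Prdx3) with thioredoxin 2 (Txn2) and its reductase (Txnrd2) removes the peroxide there.

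Because 13 members are known NRF2 targets, their promoters were searched for the core of the antioxidant response element (TGACNNNGC, both strands). Of the members, 34 had an entry among the RefSeq promoter windows, which run from 250 bases before to 50 bases after a transcript start (build GRCm38.p6). The core was found in 8 of these 34 genes (23.5%), in 5 of the 8 NRF2 targets with an entry (62.5%) and in 14% of the 27025 genes in the table. The 8 matches are shown 5′ to 3′ on the strand of the gene, with the core in capitals and 10 bases on either side, to show the letters behind this count. The NRF2 grouping used here rests on known targets and not on these matches, and Nfe2l2, Sod1 and Mt2 are not in it.
Prdx1 (chr4:116685456-116685484, + strand): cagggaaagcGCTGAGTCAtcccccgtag
Gclm (chr3:122245413-122245441, + strand): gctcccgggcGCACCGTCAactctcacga
Txnrd1 (chr10:82859104-82859132, + strand): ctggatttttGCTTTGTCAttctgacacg
Srxn1 (chr2:152105542-152105570, + strand): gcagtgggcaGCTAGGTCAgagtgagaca
Mgst1 (chr6:138140461-138140489, + strand): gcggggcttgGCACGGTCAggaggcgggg
Nfe2l2 (chr2:75704885-75704913, - strand): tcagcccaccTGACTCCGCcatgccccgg
Sod1 (chr16:90220696-90220724, + strand): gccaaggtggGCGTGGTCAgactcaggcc
Mt2 (chr8:94172529-94172557, + strand): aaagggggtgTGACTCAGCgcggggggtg

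The metallothioneins Mt1 and Mt2 encode small cysteine-rich proteins that bind zinc and copper. They are known targets of the metal-responsive factor MTF1, and the core of its element was searched as TGCACNC or TGCGCNC on both strands. It was found in 11 of the 34 members (32.4%) and in 28.2% of all genes, so the core alone is common. In Gclm 1 match overlapped the antioxidant response element core shown above. Mt1 held 3 matches and Mt2 held 4, and 1 of each is shown with the core in capitals because these genes are compared with each other below.
Mt1 (chr8:94179056-94179082, + strand): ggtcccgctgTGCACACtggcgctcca
Mt2 (chr8:94172385-94172411, + strand): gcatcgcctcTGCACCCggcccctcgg
The core of the composite element bound by ATF4 (TGATGNAA, both strands) was in 0 of the 34 members and in 4.51% of all genes. A match is a run of letters and was not tested for binding.

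The library totals recovered from the values ran from 12370092 to 18078620 reads, of which Rn45s, the precursor of ribosomal RNA, took 14.95% to 32.5%. The deposited values differed in overall scale, and the median log2 fold change of all 10807 genes tested was 0.28 as deposited. Values are therefore given after division by median-of-ratios size factors (0.815 to 1.33), which brought that median to 0.00. A gene is called where its adjusted p was under 0.05 in limma with Benjamini-Hochberg adjustment over all genes tested. Of all genes, 215 were higher and 281 lower in KO hearts. Without Tfam KO replicate 3 or Control replicate 1, 158 or 153 were lower, and without Control replicate 3, 133 were higher and 126 lower. Cardiomyocyte markers summed to between 9192 and 15991 FPKM in every library, liver markers to at most 8.59 and lung and gut markers to at most 0.195 FPKM. The liver sums were 0.212, 2.79 and 0.273 FPKM in the Tfam KO pools and 5.95, 8.59 and 2.28 in the Control pools. Alb, the only liver marker tested, was not called by limma (-1.15, limma adjusted p = 0.142). It was called lower as deposited and by limma-voom (-3.69, adjusted p = 0.0331). Tfam was at 3.39, 5.15 and 4.67 FPKM in the Tfam KO pools and 5.69, 6.4 and 6.58 FPKM in the Control pools (log2 fold change -0.43, limma adjusted p = 0.140). The deleted exons cannot be read from a gene-level value.

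Few antioxidant genes passed the test in Tfam KO hearts, and few of all genes did. Of 39 members tested, 0 were called higher (1.99% of all genes were) and 1, Glrx, was called lower (2.6% of all genes were, and 4.59% in either direction). At an unadjusted p below 0.05 in limma, 6 were higher and 5 lower, or 15.4% and 12.8% of members, against 8.49% and 11% of all genes. Limma-voom on the recovered reads called 1 member higher, Nfe2l1, and 1 lower, Glrx, where 2.57% of all genes were higher, 4.26% lower and 6.83% either. The members' median log2 fold change was 0.01 and that of all genes 0.00, with a range over members from -0.64 (Gpx1) to 0.56 (Hmox1). As deposited the members' median was 0.34, against the shift of 0.28 in all genes. On that scale 6 members (15.4%) were called higher, where 6.21% of all genes were, and 0 were called lower, where 1.16% were (7.37% in either direction). The 6 were Nfe2l1, Hmox1, Srxn1, Prdx6, Gstm1 and Mt2.

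The KO and control libraries did not overlap in 11 members. In 6 the KO libraries were all above the controls (15.4%, against 11.8% of all genes), and these were Nfe2l1, Nfe2l2, Hmox1, Srxn1, Prdx3 and Prdx6. In 5 they were all below (12.8%, against 12.2%), and these were Keap1, Gclm, Prdx2, Gpx1 and Glrx. Both shares lay near those of all genes.

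**Figure D1:**
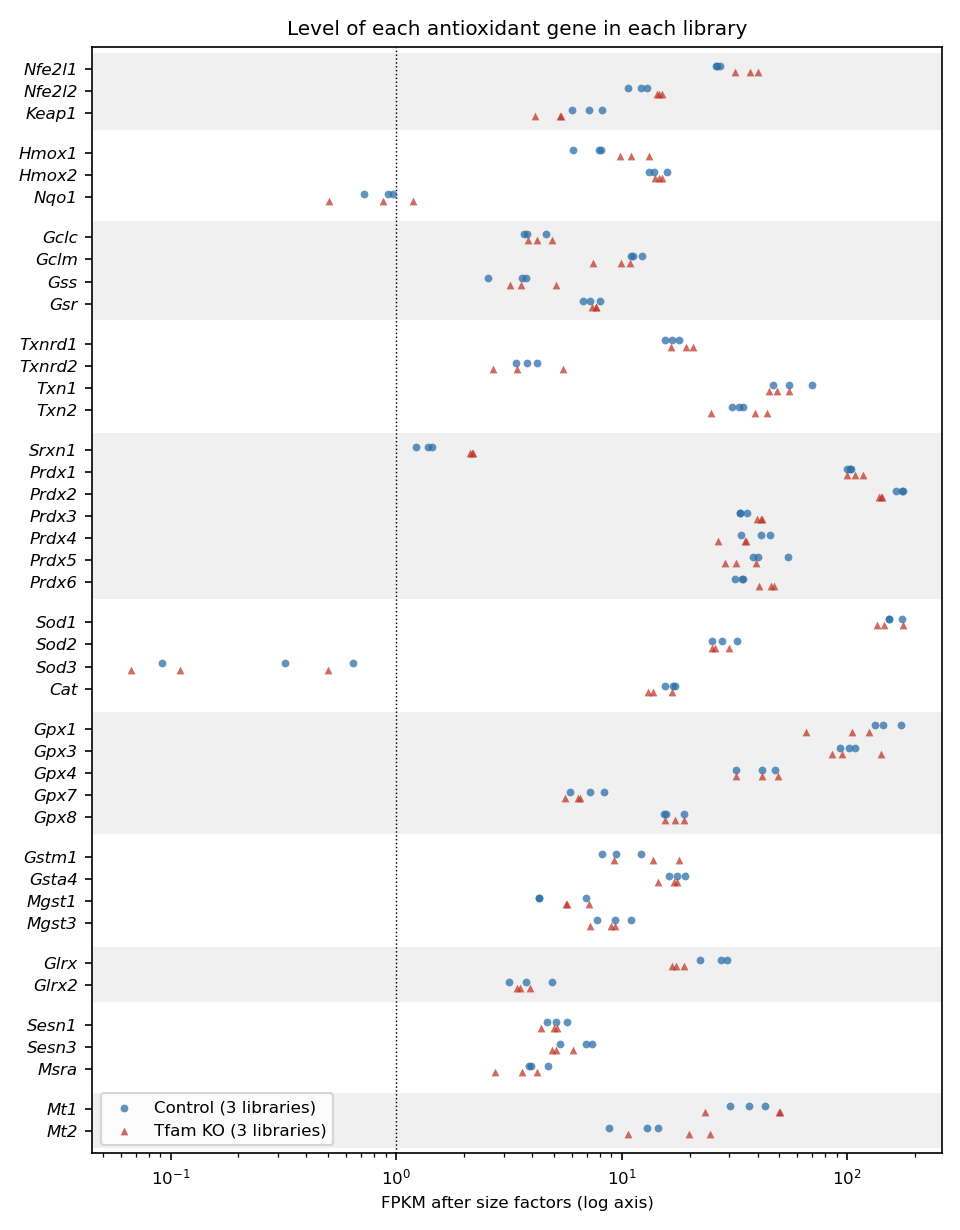
Level of the 41 genes in each library, as FPKM after size factors on a log axis, grouped by role (shaded bands). Each point is 1 library (circles for Control, triangles for Tfam KO), and the dotted line marks the filter at 1 FPKM, which Nqo1 and Sod3 did not pass. The groups do not overlap in 6 rows with KO higher, Srxn1 among them, and in 5 with KO lower, Glrx among them.

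The members covered a wide range of levels per transcript length. In control hearts the highest were Prdx2 at 172 ± 6.92 FPKM (SD, n = 3), Sod1 at 160 ± 12.5, Gpx1 at 150 ± 21.5, Prdx1 at 102 ± 2.38 and Gpx3 at 101 ± 7.71 FPKM. In this order Prdx2 and Sod1, Sod1 and Gpx1, and Prdx1 and Gpx3 did not differ beyond their spread. Peroxidases and the copper-zinc superoxide dismutase thus stood at the top, whereas Srxn1 (1.35 ± 0.112 FPKM), Nqo1 (0.869 ± 0.130) and Sod3 (0.353 ± 0.279) were at the bottom. The median coefficient of variation of the tested members was 12.6% in the Tfam KO pools and 11.7% in the Control pools. Tfam KO replicate 3 held the lowest value of 12 members, more than any other library, and Control replicate 2 held the highest value of 11.

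The regulators differed in sign, and none passed the test with size factors. Nfe2l1 was at 37.2, 40.1 and 31.6 FPKM in the Tfam KO pools and at 27.3, 26.3 and 26.1 FPKM in the Control pools. On the log2 scale it differed by 0.43 (SE 0.12), with a limma adjusted p of 0.0759, so it was not called. It was called by limma-voom on reads (adjusted p = 0.0470), as deposited (0.0208) and without Tfam KO replicate 3 (0.0456), and over all 14 alternatives its adjusted p lay between 0.0208 and 0.244. Nfe2l2 was at 14.7, 15.1 and 14.4 FPKM against 10.7, 12.2 and 12.9 FPKM (log2 fold change 0.29, SE 0.11, limma adjusted p = 0.203). Keap1 was at 5.31, 5.39 and 4.12 FPKM against 8.22, 6.03 and 7.17 FPKM (log2 fold change -0.45, SE 0.14, limma adjusted p = 0.115). In each of these genes the groups did not overlap.

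A ratio of 2 genes within a library does not depend on the scale of that library. The ratio of Nfe2l1 to Keap1 was 7.01, 7.43 and 7.67 in the Tfam KO pools and 3.33, 4.36 and 3.64 in the Control pools (7.37 ± 0.332 against 3.78 ± 0.531, SD, n = 3 each). The ratio of Nfe2l2 to Keap1 was 2.77, 2.80 and 3.48 against 1.30, 2.02 and 1.80. Both ratios stood higher in every KO library than in any control, by 0.97 and 0.84 on the log2 scale. These pairs, like Hmox1 with Hmox2, Mt2 with Mt1 and Gclc with Gclm, were chosen after their values were seen, so the ratios are given with no test. Nfe2l1 and Nfe2l2 lay above the controls and Keap1 below them in every KO library, so their ratios could not overlap. A ratio describes 2 genes together and does not tell which of them changed.

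**Figure D2:**
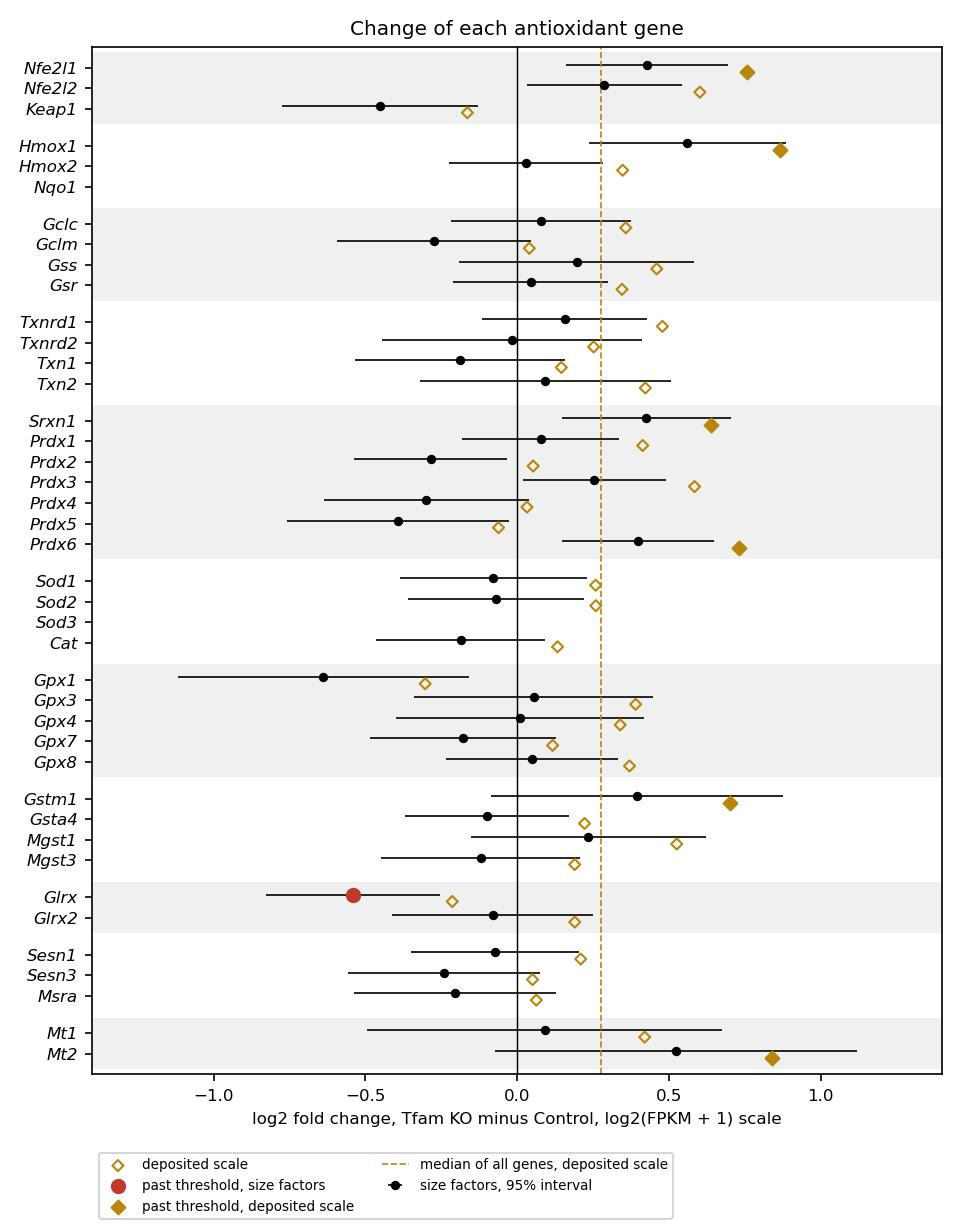
Log2 fold change of each tested member, Tfam KO minus Control, on the log2(FPKM + 1) scale, with size factors (black points, bars are 95% intervals) and as deposited (diamonds). Red marks Glrx at -0.54, called with size factors, filled diamonds are the 6 past it as deposited, and the dashed line is the median of all genes as deposited, 0.28.

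Among the NRF2 targets, 12 of 13 were tested and 0 were called in either direction by limma with size factors or by limma-voom. At an unadjusted p below 0.05 in limma, 3 were higher (25%, against 8.49% of all genes) and 0 lower (against 11%). Their median log2 fold change was 0.12, and 9 were above 0 and 3 below. As deposited, 4 were called higher (33.3%, against 6.21% of all genes) and 0 lower (against 1.16%), and the median was 0.45, against 0.28 for all genes.

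Hmox1, which encodes the inducible heme oxygenase that breaks heme down to biliverdin, iron and carbon monoxide, had the most positive log2 fold change of the set over all 6 libraries with size factors and a pseudocount of 1. With a pseudocount of 0.1 (0.62 against 0.64) and by limma-voom (0.61 against 0.66), Srxn1 stood above it. It was at 13.2, 9.83 and 11 FPKM in the Tfam KO pools and at 8.10, 6.10 and 7.91 FPKM in the Control pools, with no overlap. On the log2 scale it differed by 0.56 (SE 0.15, limma adjusted p = 0.0593), and its adjusted p ranged from 0.00535 to 0.139 over the alternatives. Hmox2, the constitutive form, was at 14.6 ± 0.496 FPKM in KO hearts and 14.3 ± 1.35 in controls, with a 95% interval of the log2 fold change from -0.22 to 0.28. The Hmox1 to Hmox2 ratio was 0.903, 0.698 and 0.732 in KO hearts against 0.583, 0.385 and 0.599 in controls, again without overlap. Macrophages are rich in Hmox1, and the summed level of 10 macrophage markers was 20.3 to 23.3 FPKM in the Tfam KO pools and 21.2 to 26.1 FPKM in the Control pools. Of the 9 tested, 6 had a log2 fold change above 0 and the median was 0.15. Limma called 0 higher and 1 lower, Lyz2 (-0.59, limma adjusted p = 0.0204, called under 8 of the 14 alternatives and not as deposited), which at 5.55 to 6.58 FPKM against 8.92 to 10.6 FPKM made up much of the sum. Their part in the Hmox1 values was not tested.

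Srxn1 encodes sulfiredoxin, which repairs over-oxidised peroxiredoxins. It was at 2.16, 2.18 and 2.12 FPKM in the Tfam KO pools and at 1.23, 1.44 and 1.38 FPKM in the Control pools. The KO libraries were alike and all above the controls, resting on 72 to 122 reads against 36 to 65. On the log2 scale the difference was 0.43 (SE 0.12, limma adjusted p = 0.0881), and the adjusted p ranged from 0.0399 to 0.253 over the alternatives. On the scale of reads, where no pseudocount of 1 is added to a low level, limma-voom gave 0.66 (adjusted p = 0.1).

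Prdx6 encodes a peroxiredoxin that reduces phospholipid peroxides with glutathione. Its levels were 47.3, 40.6 and 45.8 FPKM against 34.4, 34.2 and 31.9 FPKM. The difference was 0.40 on the log2 scale (SE 0.11, limma adjusted p = 0.0782), with adjusted p from 0.0279 to 0.285 over the alternatives. Gstm1, a cytosolic glutathione transferase whose close paralogs may have shared its reads, was at 13.7, 18 and 9.21 FPKM against 8.17, 12.2 and 9.43 FPKM. Here the groups overlapped (log2 fold change 0.39, SE 0.22, limma adjusted p = 0.364), although it was called as deposited (adjusted p = 0.0364).

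In the other NRF2 targets described next the groups overlapped. Nqo1, a quinone reductase often used as a readout of NRF2, was at a low level, with 10 to 41 reads in the Tfam KO pools and 12 to 26 in the Control pools. It was at 0.878, 0.504 and 1.19 FPKM against 0.965, 0.721 and 0.921 FPKM. Txnrd1, the cytosolic thioredoxin reductase, was at 18.8 ± 2.08 FPKM in KO hearts and 16.8 ± 1.16 in controls. Prdx1 was at 108 ± 8.90 against 102 ± 2.38 FPKM, with a 95% interval of the log2 fold change from -0.18 to 0.34. The transferases Gsta4 and Mgst1 were at 16.4 ± 1.62 and 6.17 ± 0.853 FPKM in KO hearts and 17.6 ± 1.45 and 5.18 ± 1.51 in controls.

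Glutathione is made by glutamate-cysteine ligase, with a catalytic subunit (Gclc) and a modifier subunit (Gclm), and then by glutathione synthetase (Gss), and it is regenerated by glutathione reductase (Gsr). Of these 4, limma called 0 and gave 0 at an unadjusted p below 0.05 in either direction. Gclm was at 10.9, 7.45 and 9.97 FPKM in the Tfam KO pools and at 12.3, 11.2 and 11 FPKM in the Control pools. Its KO values all lay below the controls (log2 fold change -0.27, SE 0.14, limma adjusted p = 0.338), while as deposited the sign turned (0.04). Gclc was at 4.34 ± 0.547 against 4.05 ± 0.505 FPKM, Gss at 3.96 ± 1.01 against 3.31 ± 0.651 and Gsr at 7.58 ± 0.175 against 7.33 ± 0.657. The Gclc to Gclm ratio was 0.387, 0.518 and 0.495 in KO hearts and 0.300, 0.414 and 0.347 in controls, and the groups overlapped.

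The glutaredoxins reduce mixed disulfides of proteins with glutathione. Glrx, the cytosolic form, fell in Tfam KO hearts. It was at 18.95, 16.7 and 17.4 FPKM in the Tfam KO pools and at 27.5, 29.2 and 22.3 FPKM in the Control pools, and the groups did not overlap. The difference was -0.54 on the log2 scale (SE 0.13, limma adjusted p = 0.0432) and limma-voom gave -0.55 (adjusted p = 0.0322). The call sits close to the threshold. It was lost as deposited (adjusted p = 0.521) and without Tfam KO replicate 1, 2 or 3 (0.0569, 0.143 and 0.107) or Control replicate 1 or 2 (0.127 and 0.109). It held without Control replicate 3. The mitochondrial Glrx2 was at 3.44, 3.54 and 3.91 FPKM against 3.15, 4.92 and 3.75 FPKM, with a 95% interval of the log2 fold change from -0.41 to 0.25.

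Glutathione peroxidases reduce peroxides with glutathione. Gpx1 was at 125, 105 and 65.9 FPKM in the Tfam KO pools and at 174, 132 and 144 FPKM in the Control pools. All KO values lay below the controls, with Tfam KO replicate 3 lowest. The log2 fold change of -0.64 was the most negative of the set, with a wide error (SE 0.22, limma adjusted p = 0.136, and 0.0537 by limma-voom). Gpx4, the enzyme that acts on lipid hydroperoxides in membranes, was at 41 ± 8.75 FPKM in KO hearts and 40.7 ± 7.93 in controls. Its 95% interval of the log2 fold change was -0.40 to 0.42. The secreted Gpx3 was at 141, 95.2 and 85.9 FPKM against 109, 93.2 and 102 FPKM. The endoplasmic reticulum enzymes Gpx7 and Gpx8 were at 6.17 ± 0.477 and 17.2 ± 1.67 FPKM against 7.17 ± 1.22 and 16.6 ± 1.94.

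The peroxiredoxins, which remove peroxide through a reactive cysteine, differed in sign within the family. Prdx2, cytosolic and abundant in red cells, was at 142, 142 and 139 FPKM in the Tfam KO pools and at 174, 177 and 164 FPKM in the Control pools (log2 fold change -0.28, SE 0.11, limma adjusted p = 0.201, and 0.05 as deposited). Prdx3 of the mitochondrial matrix was at 41.5, 41.9 and 39.8 FPKM against 33.5, 35.9 and 33.5 FPKM (log2 fold change 0.25, SE 0.11, limma adjusted p = 0.222). Neither overlapped between the groups and neither was called. Prdx5, found in mitochondria, peroxisomes and cytosol, was at 33.4 ± 5.45 FPKM in KO hearts and 44.3 ± 8.89 in controls, and the endoplasmic reticulum enzyme Prdx4 at 32.5 ± 4.98 against 40.2 ± 5.87. Both overlapped.

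No superoxide dismutase or catalase passed the test. Sod1, the cytosolic copper-zinc enzyme, was at 135, 146 and 177 FPKM in KO hearts and at 175, 154 and 153 in controls. Sod2, the manganese enzyme of the mitochondrial matrix, was at 26.04, 29.96 and 25.2 FPKM against 27.9, 32.6 and 25.1. Their 95% intervals of the log2 fold change were -0.39 to 0.23 and -0.36 to 0.22. Cat, the peroxisomal catalase, was at 13.04, 16.8 and 13.8 FPKM against 16.95, 17.3 and 15.5 (log2 fold change -0.19, limma adjusted p = 0.472, and 0.13 as deposited). The extracellular Sod3 was read 2, 13 and 5 times in the Tfam KO pools and 15, 2 and 12 times in the Control pools.

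In the thioredoxin system, Txn1 of the cytosol was at 49.03, 45.05 and 55.1 FPKM in KO hearts and at 46.8, 69.8 and 55.4 in controls (log2 fold change -0.19, SE 0.16, limma adjusted p = 0.573). Txn2 of mitochondria was at 44.0, 38.9 and 24.9 FPKM against 34.4, 30.8 and 33.05. Txnrd2, its reductase, was at 5.47, 3.45 and 2.69 FPKM against 3.79, 4.21 and 3.40. In both mitochondrial genes Tfam KO replicate 1 was the highest of the 6 libraries and Tfam KO replicate 3 the lowest, so the KO group spanned the controls.

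Mitochondrial and cytosolic members were then set side by side. The 5 matrix proteins (Txnrd2, Txn2, Prdx3, Sod2 and Glrx2) had a median log2 fold change of -0.02, with 0 called by limma or limma-voom and 1 higher and 0 lower at an unadjusted p below 0.05. The 13 cytosolic members had a median of 0.08, with 1 called lower (7.69%, against 2.6% of all genes), and 2 higher and 2 lower at an unadjusted p below 0.05 (15.4% each, against 8.49% and 11% of all genes). Their summed levels were 96.5 to 120 FPKM in the Tfam KO pools and 98.8 to 108 in the Control pools for the matrix proteins, and 556 to 609 against 595 to 636 FPKM for the cytosolic ones. Within libraries, the ratio of Prdx3 to Prdx1 was 0.354, 0.421 and 0.368 in KO hearts and 0.336, 0.345 and 0.325 in controls. The ratio of Glrx2 to Glrx was 0.182, 0.211 and 0.224 against 0.114, 0.169 and 0.168. These ratios of a mitochondrial to a cytosolic form were higher in every KO library than in any control. Prdx3 had a log2 fold change of 0.25 and Prdx1 of 0.08. Glrx2 had -0.08 and Glrx -0.54, so that ratio was higher because Glrx was lower, not because Glrx2 was higher. How often ratios of other gene pairs do not overlap was not tested. The ratios of Sod2 to Sod1, Txn2 to Txn1 and Txnrd2 to Txnrd1 overlapped between the groups, with means of 0.180, 0.737 and 0.208 in KO hearts and 0.179, 0.590 and 0.228 in controls. In bulk tissue, fewer cells of a type and less RNA per cell cannot be told apart.

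**Figure D3:**
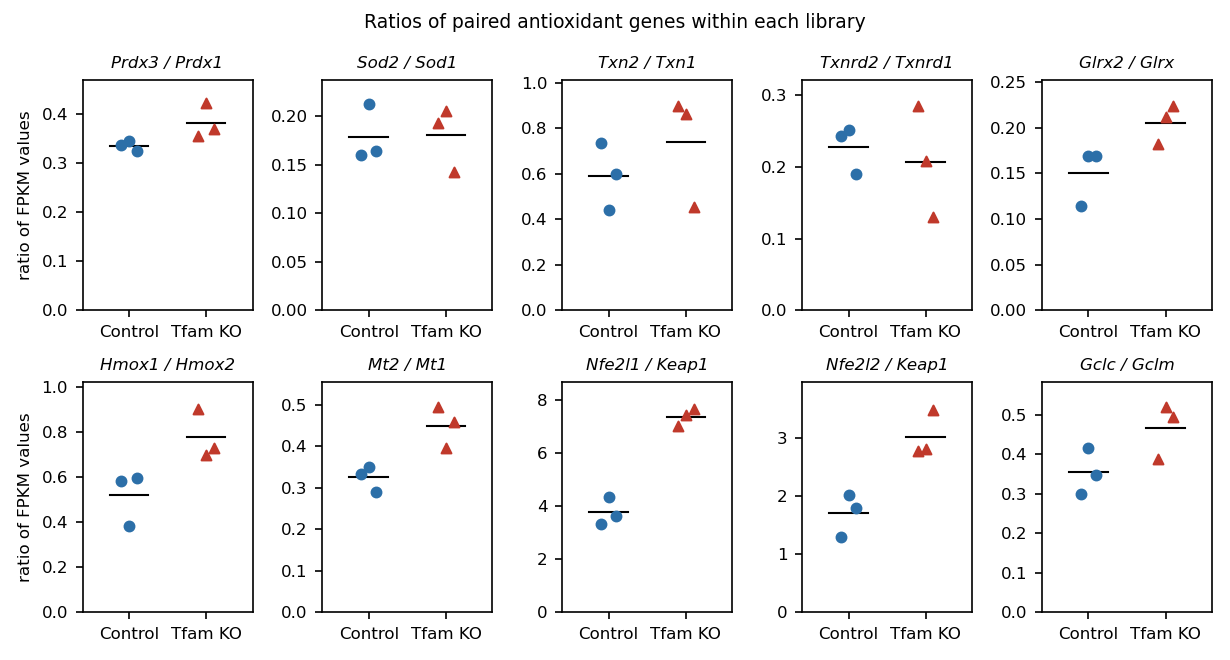
Ratio of the FPKM values of paired genes within each library, which does not depend on the library's scale. Points are libraries (3 Control, 3 Tfam KO), lines are means and every axis starts at 0, and the KO and Control points do not overlap for Prdx3/Prdx1, Glrx2/Glrx, Hmox1/Hmox2, Mt2/Mt1, Nfe2l1/Keap1 and Nfe2l2/Keap1.

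Red cells carry much Prdx2, Gpx1 and Cat, so erythroid markers are given beside them. The summed level of 10 erythroid markers was 5607, 3340 and 10165 FPKM in the Tfam KO pools and 12939, 6245 and 8555 FPKM in the Control pools. Hbb-y made up most of this sum in each library (4268, 2588 and 8499 FPKM against 10607, 5141 and 6982). Hba-x made up most of the rest, so the sum mainly follows these globins. All 6 erythroid markers tested had a log2 fold change below 0, with a median of -0.44, and limma called 0 of them, as did limma-voom. At an unadjusted p below 0.05, limma gave 1 lower (16.7%, against 11% of all genes). By limma-voom 3 of the 6 were lower at that level, where 1299 of all 10807 genes were. Hba-a1 was listed at 0 in every library, and Hba-a2 and Hbb-b1 had at most 1 read in any library. The part of red cells in these values was not tested.

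Mt2 and Mt1 lie in the same gene cluster. Mt2 was at 24.6, 19.8 and 10.7 FPKM in the Tfam KO pools and at 14.4, 12.9 and 8.80 FPKM in the Control pools, with overlap. The difference was 0.52 on the log2 scale (SE 0.27, limma adjusted p = 0.323), with adjusted p from 0.00816 to 0.662 over the alternatives, the lowest as deposited. Mt1 was at 49.9, 50.1 and 23.3 FPKM against 43.2, 36.8 and 30.3 FPKM (log2 fold change 0.09, SE 0.26). Both were lowest in Tfam KO replicate 3 among the KO libraries. The Mt2 to Mt1 ratio was 0.494, 0.396 and 0.458 in KO hearts and 0.333, 0.351 and 0.290 in controls, and did not overlap.

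Sestrins are stress proteins that restrain mTORC1. Sesn3 was at 4.93, 5.11 and 6.06 FPKM against 6.98, 5.32 and 7.38 (log2 fold change -0.24, SE 0.14, limma adjusted p = 0.404, and 0.05 as deposited), and Sesn1 was at 4.86 ± 0.400 against 5.17 ± 0.538. Msra, which repairs oxidised methionine, was at 3.52 ± 0.732 FPKM in KO hearts and 4.18 ± 0.474 in controls. Mgst3, a microsomal transferase, was at 8.51 ± 1.09 against 9.37 ± 1.62 FPKM.

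Other genes of the same pathways were read from 4 lists of 79 genes, of which 65 were tested. Limma called 4 higher (6.15%, against 1.99% of all genes) and 2 lower (3.08%, against 2.6%). Chac1, among those called higher, passed the filter only through the Tfam KO pools. The counts of single lists below rest on 11 to 19 genes each and are read against the same shares. The median log2 fold change of the 4 lists together was 0.02. Single lists ran from -0.07 (other antioxidant and metal-binding genes) to 0.16 (other glutathione genes).

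Of 19 other NRF2 pathway genes tested, 1 was higher and 0 lower. Mafg, a small MAF partner of NRF2 and NRF1, was at 8.13, 9.29 and 9.36 FPKM in the Tfam KO pools and at 6.04, 5.08 and 6.19 in the Control pools, with no overlap. It rose by 0.55 on the log2 scale (SE 0.12, limma adjusted p = 0.0299). The call was lost on leaving out any single library other than Tfam KO replicate 1, and with no filter on low values, with adjusted p up to 0.103.

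Of 18 other glutathione genes tested, 2 were higher and 0 lower. Chac1, an enzyme that degrades glutathione and is a known ATF4 target, was at 6.26, 3.79 and 3.09 FPKM in KO hearts and at 0.337, 0.119 and 0 FPKM in controls, or 144, 76 and 108 reads against 6, 2 and 0. It rose by 2.19 on the log2 scale (SE 0.21, limma adjusted p = 0.000261). All its control values were under 1 FPKM, so it passed the filter only through the Tfam KO pools. Gsto1, an omega-class glutathione transferase, was at 27.1, 26.6 and 19.2 FPKM against 10.2, 12.5 and 9.23 FPKM. On the log2 scale it differed by 1.11 (SE 0.16, limma adjusted p = 0.00310), above that of every transferase among the members, and it was called under all 14 alternatives.

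Slc7a11, the cystine importer that supplies cysteine for glutathione, lay under the filter and is named after its values were seen. It was at 1.28, 1.03 and 1.496 FPKM in the Tfam KO pools and at 0.0286, 0.0809 and 0.0238 FPKM in the Control pools. These values rested on 173, 122 and 307 reads against 3, 8 and 4. In the fit with no filter its log2 fold change was 1.12, on a scale that understates changes from so low a level. Because of how it was chosen, it is given with no test. It is known as a target of both NRF2 and ATF4.

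Of 17 other thioredoxin and methionine sulfoxide genes, 1 was higher and 1 lower. Sesn2, the sestrin known as an ATF4 and NRF2 target, was at 8.42, 8.22 and 6.76 FPKM in the Tfam KO pools and at 1.99, 1.05 and 1.74 in the Control pools. It rose by 1.77 on the log2 scale (SE 0.16, limma adjusted p = 0.000173) and was called under all 14 alternatives, whereas Sesn1 and Sesn3 among the members had log2 fold changes of -0.07 and -0.24 and were not called. Txnip, an inhibitor of thioredoxin that also restrains glucose uptake, was at 16.5, 18.5 and 15.2 FPKM against 26.6, 29.4 and 23.2. It fell by 0.62 on the log2 scale (SE 0.13, limma adjusted p = 0.0206), and this call was lost as deposited (adjusted p = 0.368), with no filter, and on leaving out Control replicate 1 or 2 or Tfam KO replicate 1 or 3.

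Of 11 other antioxidant and metal-binding genes tested, 0 were higher and 1 was lower. Romo1, a small mitochondrial membrane protein linked to the formation of reactive oxygen species, was at 3.36, 4.57 and 5.17 FPKM in KO hearts and at 26.2, 10.2 and 14.2 in controls. These values rested on 27, 32 and 63 reads against 163, 60 and 142. It fell by 1.65 on the log2 scale (SE 0.27, limma adjusted p = 0.00701) and was called under all 14 alternatives.

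**Figure D4:**
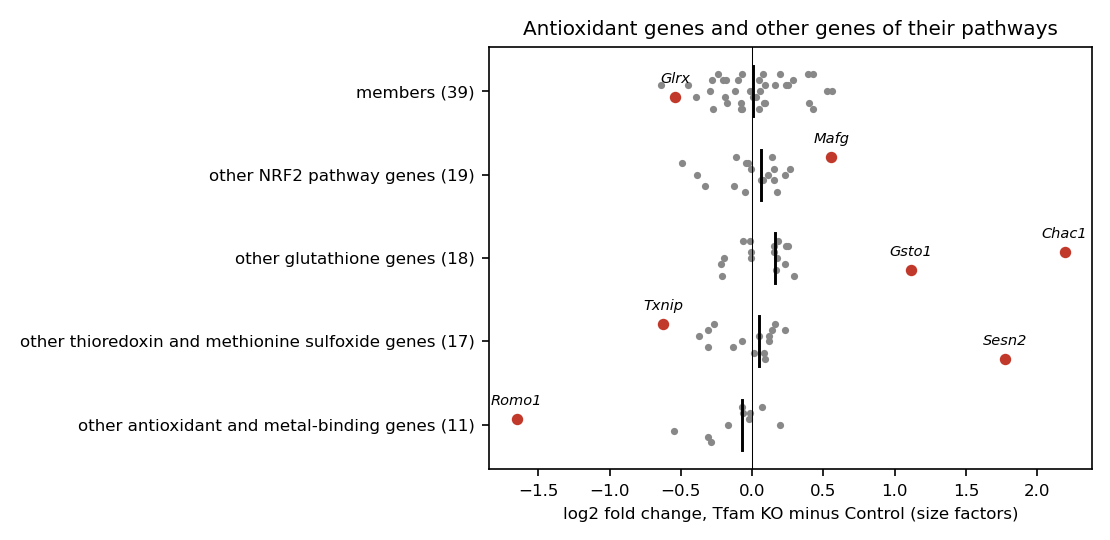
Log2 fold change with size factors of the 39 tested members and of the tested genes of 4 other lists of the same pathways (numbers in brackets), Tfam KO minus Control. Each point is a gene, black bars are list medians and red points are genes past the threshold. The medians run from -0.07 (other antioxidant and metal-binding genes) to 0.16 (other glutathione genes). Glrx is the member called, and the farthest points are Chac1 at 2.19, Sesn2 at 1.77 and Romo1 at -1.65. Chac1 passed the filter only through the Tfam KO pools.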

How the data were processed

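Poly(A) RNA of 6 libraries, 3 per genotype and each a pool of 5 hearts, was analysed. Build mm9 and the tools TopHat2 2.0.7, HTSeq 0.5.3 and CASAVA 1.8.2 are named in the submitters' processing notes. For the annotation, strand setting and FPKM formula, the steps are not given in the sources used here. The authors deposited log2(FPKM + 1) values. Their base was found from steps of whole reads. All 17876 genes above 0 gave whole reads (tolerance 1e-05 for low counts, wider for high ones), known up to a common factor per gene, and the library totals were those on which 248 genes with a single transcript length in GENCODE agreed. Strand is unknown, so antisense partners cannot be told apart.

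Genes averaging 1 FPKM or more entered a limma 3.58.1 fit (R 4.3.3) of log2(FPKM/size factor + 1), with group as the only term, a variance trend, two-sided tests, and Benjamini-Hochberg adjustment over all 10807 genes. The pseudocount of 1 understates changes of low genes. Size factors were medians of ratios over genes tested and above 0 in every library. Libraries of a group differed by more than counting noise (chi-square per degree of freedom 8.04 to 18.75).

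The members, lists and tests were chosen with earlier results of these data known. Members past the threshold with size factors or as deposited, and the member of each role with the largest change, are given in every library, and of the other lists the genes past the threshold. Promoters and their coordinates are from RefSeq on GRCm38.p6, not the build named in the notes.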

Additional observations from a re-analysis of the deposited data

How the results depend on the processing

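The scale of the libraries mattered most. As deposited, 6 members were higher and 0 lower, all genes gave 671 higher and 125 lower, and 1 gene of the other lists was lower. Medians were 0.34 for all members, 0.26 for mitochondrial, 0.36 for cytosolic and 0.45 for NRF2-target members, which follows the shift of all genes. Uncalled members turned positive as deposited, namely Gclm (0.040), Txnrd2 (0.25), Txn1 (0.15), Prdx2 (0.053), Prdx4 (0.033), Sod1 (0.26), Sod2 (0.26), Cat (0.13), Gpx7 (0.12), Gsta4 (0.22), Mgst3 (0.19), Glrx2 (0.19), Sesn1 (0.21), Sesn3 (0.051) and Msra (0.063). With equal FPKM sums without Rn45s, Txnrd2 turned to 0.029, and with limma-voom Gpx4 turned to -0.0042.

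Glrx was not called with equal sums, no filter or no variance trend, which left 0 members lower (adjusted p = 0.0699, 0.0904 and 0.0550 in limma). Without a filter 143 genes were lower and 1 in the other lists. With a mean of at least 5 FPKM the cytosolic median was -0.10, over fewer genes. Limma-voom gave 1 member higher, 1 lower and 460 genes lower. With the replicate number as a block 2 members were higher (Hmox1 and Mt2, limma adjusted p = 0.0199 and 0.0453) and 1 lower. The block raised the calls among all genes too, to 278 higher and 421 lower, from 215 and 281 without it. Deviations of same-numbered libraries correlated at 0.359, 0.0681 and 0.160. Tfam KO replicates 1 and 2 correlated best with the control of their own number, and Tfam KO replicate 3 with Control replicate 2 (0.252). With 3 pools per group these values cannot decide whether the numbers pair the libraries.

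Leaving out each library in turn gave 0 to 1 members higher, 0 to 1 lower, 133 to 213 genes higher and 126 to 350 lower, and 3 to 4 higher and 1 to 2 lower in the other lists. Signs turned for Txn2 (-0.068 to 0.33), Sod1 (-0.19 to 0.0051), Sod2 (-0.15 to 0.032), Gpx3 (-0.16 to 0.20), Gpx4 (-0.14 to 0.17), Gpx8 (-0.014 to 0.14), Gsr (-0.012 to 0.11), Mt1 (-0.086 to 0.45), Txnrd2 (-0.24 to 0.16), Glrx2 (-0.20 to 0.062) and Hmox2 (-0.021 to 0.10). With 3 pools per group, the 95% intervals were wide: that of Hmox2 ran from -0.22 to 0.28 and that of Mt1 from -0.49 to 0.67 on the log2 scale. They are intervals of single genes, not adjusted for the number of genes tested, so an interval without 0 is not a call. That of Hmox1 ran from 0.24 to 0.89, and Hmox1 was not called with size factors.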
